A study of Homo sapiens with 12 samples.

Results

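The 7 genes described here are MYC, JUN, JUNB, JUND, FOS, EGR1 and IER2. They were chosen as MYC plus a set of immediate early transcription factors, by gene symbols matched to the Ensembl IDs of the deposited expression table, and all 7 were found among its 15534 IDs. The IDs are ENSG00000136997 for MYC, ENSG00000177606 for JUN, ENSG00000171223 for JUNB, ENSG00000130522 for JUND, ENSG00000170345 for FOS, ENSG00000120738 for EGR1 and ENSG00000160888 for IER2. Of these, 5 (MYC, JUN, JUNB, JUND and IER2) were listed above 0 in all 12 libraries. FOS was listed above 0 in 2 libraries and EGR1 in 1.

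Immediate early genes are transcribed within minutes of a growth or stress signal, without new protein synthesis, and their mRNAs are usually short-lived. JUN, JUNB, JUND and FOS encode leucine zipper proteins that pair to form AP-1, a factor that binds DNA at AP-1 and cAMP response elements. JUND is made more steadily than the others in many cells. EGR1 is a zinc finger factor driven by serum response factor, IER2 is a small nuclear protein induced by growth factors, and MYC is a helix-loop-helix factor that pairs with MAX and drives growth and ribosome-making genes.

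The libraries came from HEK293T, a human embryonic kidney cell line, treated with an inhibitor of PRMT1, an inhibitor of PRMT4 (also named CARM1) or DMSO, the solvent. PRMT1 and PRMT4 are enzymes that methylate arginine residues of proteins. Per the labels, cell extracts were centrifuged in sucrose gradients of 10 to 50%, where mRNAs part by how many ribosomes they carry, and the study asked whether translation is altered when these enzymes are inhibited. Each treatment gave 4 libraries, namely total input and the mRNA bound by 1, by 2 and by 3 or more ribosomes, 12 in all and 1 per group. The sources used here name no compound, dose or time. No value below has a replicate, so no test was run, no p-value is given, and no difference can be set against the spread between cultures.

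Levels are FPKM, fragment numbers scaled for the length of a transcript and the size of a library, as deposited. Counts are not part of the table, but values of the 1310 single-transcript genes come in steps, which put the counted fragments at an estimated 437382 to 603657 per library. Summed FPKM was 329897 to 425444 in 11 libraries and 201967 in the DMSO input. Of 10809 named genes with a mean of at least 1 FPKM, 10.9 to 19.4% were listed at 0 in those 11 libraries and 27.3% in the DMSO input. Across genes, the PRMT4-inhibitor input had Spearman correlations of 0.66 to 0.74 with the 9 ribosome fractions, but of 0.62 with the PRMT1-inhibitor input and 0.63 with the DMSO input. The part of these library features in the input and association values was not tested. Of 8 HEK293 marker genes, 7 were in the table and 5 were above 0 in all 12 libraries, led by KRT8 and VIM at mean FPKM of 907 and 261. Of 9 markers of other cell types, 4 were in the table, and none of them was at 0 in every library. An opposite-strand exon was annotated for 84.0% of the 100 genes highest in mean FPKM and for 39.3% of 15345 genes, so listed values may hold fragments of a partner gene. PRMT1 averaged 18.1 FPKM and CARM1 116 FPKM, which says nothing of whether the enzymes were inhibited. In bulk RNA, fewer cells making a transcript and less transcript per cell cannot be told apart.

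The promoters of 4 of the genes are shown because they carry, in different combinations, the elements that AP-1, CREB and serum response factor are known to bind. Each run is the 250 bases before the RefSeq start on GRCh38.p14, read 5′ to 3′ on the strand of the gene. The JUN promoter is at chr1:58784048-58784297 on the minus strand, with capitals on TGACATCA, an AP-1-type element known for binding JUN with ATF2. The JUND promoter is at chr19:18281623-18281872 on the minus strand, with capitals on TGACGTCA, the full cAMP response element. The FOS promoter is at chr14:75278578-75278827 on the plus strand, with capitals on TGACGT, the shorter form of that element. The EGR1 promoter is at chr5:138465229-138465478 on the plus strand, with capitals on its CArG boxes, the motif of serum response factor.
JUN: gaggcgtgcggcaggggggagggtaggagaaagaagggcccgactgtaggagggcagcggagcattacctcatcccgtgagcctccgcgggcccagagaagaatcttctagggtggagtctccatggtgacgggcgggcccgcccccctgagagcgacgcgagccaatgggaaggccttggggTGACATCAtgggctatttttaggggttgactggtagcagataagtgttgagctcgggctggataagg
JUND: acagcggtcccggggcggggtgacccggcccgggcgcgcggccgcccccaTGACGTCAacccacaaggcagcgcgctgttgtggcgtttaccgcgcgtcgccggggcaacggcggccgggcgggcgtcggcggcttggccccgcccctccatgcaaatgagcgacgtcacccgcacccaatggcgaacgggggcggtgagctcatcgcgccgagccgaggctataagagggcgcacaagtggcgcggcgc
FOS: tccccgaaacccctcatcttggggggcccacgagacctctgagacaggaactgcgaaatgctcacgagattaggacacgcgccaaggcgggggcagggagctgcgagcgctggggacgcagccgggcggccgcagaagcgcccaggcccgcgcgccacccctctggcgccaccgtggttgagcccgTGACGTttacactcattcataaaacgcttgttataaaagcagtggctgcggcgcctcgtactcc
EGR1: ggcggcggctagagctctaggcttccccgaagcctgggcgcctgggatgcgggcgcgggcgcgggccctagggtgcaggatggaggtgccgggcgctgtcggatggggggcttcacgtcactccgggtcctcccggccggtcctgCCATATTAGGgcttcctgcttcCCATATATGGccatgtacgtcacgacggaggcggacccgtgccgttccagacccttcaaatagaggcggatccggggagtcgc

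Both strands were searched in the promoters of 6 of the genes (MYC was left out) and in all 34788 RefSeq promoters of the same length. TGACGTCA was found in 1.64% of all promoters and, among the 6 genes, in JUND. TGACATCA was found in 2.36% of all promoters and, among the 6, in JUN. The CArG box was found in 1.17% of all promoters and, among the 6, at 2 places in EGR1. TGACGT, which is part of TGACGTCA and is counted on each strand, was found in 7.09% of all promoters and in JUND, FOS and EGR1. TATAAA was in 10.8% of all promoters and in JUNB and FOS. GGGCGG, the core of GC boxes, was in 42.6% and in JUN, JUND, FOS and IER2. TGACTCA, the classical AP-1 site, was in 4.21% of all promoters and in none of these 6 windows. These matches describe the windows and say nothing of what is bound there.

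MYC had the highest mean over the 12 libraries and IER2 the lowest of the 5 genes seen throughout. In mean FPKM with the SD over the 12 libraries, which spans treatments and fractions, MYC stood at 44.8 ± 26.8, JUND at 38.8 ± 22.1, JUNB at 38.5 ± 20.5, JUN at 14.8 ± 6.25 and IER2 at 6.84 ± 2.32. The means of MYC, JUND and JUNB differed by less than that spread, which does not measure the error of a level. The place of JUND depends on the transcript length it was given. The ranges of neighbours in this order overlapped, at 5.51 to 71.0 FPKM for JUNB, 5.87 to 27.5 FPKM for JUN and 3.42 to 10.7 FPKM for IER2. Among the 10809 genes, 87.7% had a lower mean than MYC, 86.0% than JUND, 85.9% than JUNB, 71.1% than JUN and 53.5% than IER2. Housekeeping mRNAs were close to the upper 3, with ACTB at a mean of 47.0 FPKM and GAPDH at 50.4 FPKM.

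MYC was listed, in the order input, 1 ribosome, 2 ribosomes and 3 or more, at 63.1, 24.1, 21.7 and 101 FPKM with the PRMT1 inhibitor. With the PRMT4 inhibitor it was listed at 39.8, 69.4, 9.29 and 35.6 FPKM, and with DMSO at 69.5, 31.5, 18.9 and 53.9 FPKM. The 2-ribosome fraction was the lowest in each treatment, while the highest was the fraction of 3 or more with the PRMT1 inhibitor, the 1-ribosome fraction with the PRMT4 inhibitor and the input with DMSO. MYC has 9 annotated transcripts of 345 to 2366 bases, and no single length made its values whole numbers of fragments. Its DMSO input value therefore stands for between 7.36 and 83.6 fragments, and no counting interval is given for MYC. Other values rest on fewer, between 2.35 and 26.7 fragments with 1 ribosome and the PRMT1 inhibitor. With 2 ribosomes and the PRMT4 inhibitor it was between 1.09 and 12.4 fragments.

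JUN was listed in the same order at 21.6, 15.4, 13.1 and 27.5 FPKM with the PRMT1 inhibitor, at 8.69, 10.9, 5.87 and 9.32 FPKM with the PRMT4 inhibitor and at 11.4, 17.3, 15.1 and 20.9 FPKM with DMSO. The 4 PRMT4-inhibitor values lay below all 4 DMSO values, which held for 0.407% of the 10809 genes, and below all 4 PRMT1-inhibitor values, which held for 1.83%. Genes listed at 0 in any library of the higher treatment cannot meet this rule, which lowers both shares. The 4 values of a treatment are its input and fractions, not repeats. JUN has 1 annotated transcript, of 3540 bases, at which its 12 values came out as 12 to 49 whole fragments within 0.01, 312 in all. No exon of another gene lies opposite it.

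JUNB was listed in that order at 57.5, 54.0, 71.0 and 17.1 FPKM with the PRMT1 inhibitor, at 17.6, 29.8, 51.6 and 28.9 FPKM with the PRMT4 inhibitor and at 5.51, 30.6, 62.2 and 35.8 FPKM with DMSO. The 2-ribosome fraction was the highest in all 3 treatments. The inputs differed most, with 42 fragments in the PRMT1-inhibitor input, 15 in the PRMT4-inhibitor input and 5 in the DMSO input. JUNB has 1 annotated transcript, of 1820 bases, and 408 fragments in all. It shares 259 exonic bases with HOOK2 on the opposite strand. HOOK2, which encodes a linker of cargo to microtubule motors, was listed in that order at 157, 52.3, 60.9 and 149 FPKM with the PRMT1 inhibitor, at 72.0, 29.8, 39.7 and 93.8 FPKM with the PRMT4 inhibitor and at 30.3, 13.0, 44.5 and 95.1 FPKM with DMSO. HOOK2 inputs thus came in the same order as JUNB inputs, and its part in the JUNB values was not tested.

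JUND was listed in that order at 52.1, 17.1, 65.5 and 86.7 FPKM with the PRMT1 inhibitor, at 28.0, 12.7, 18.9 and 47.6 FPKM with the PRMT4 inhibitor and at 31.5, 43.2, 20.1 and 42.6 FPKM with DMSO. These values are whole numbers of fragments, within 0.04, only at the shorter of its 2 annotated transcripts, of 500 bases, and at the 1863-base transcript 7 of 12 were whole. At the shorter length JUND rests on 2 to 16 fragments per library and 86 in all. Its DMSO input value of 31.5 FPKM has a 95% interval of 11.5 to 68.5 FPKM (exact Poisson). Intervals of this kind cover counting error only.

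IER2 was listed in that order at 10.7, 4.32, 7.75 and 6.67 FPKM with the PRMT1 inhibitor, at 7.05, 3.89, 3.42 and 8.14 FPKM with the PRMT4 inhibitor and at 8.60, 6.63, 5.06 and 9.82 FPKM with DMSO. Its whole range was 3.12-fold, the smallest of the 5 genes, against 10.8-fold for MYC, 12.9-fold for JUNB, 6.86-fold for JUND and 4.68-fold for JUN. IER2 shares 946 exonic bases with AC011446.2 on the opposite strand, and no single one of its 3 annotated transcripts gave whole fragments. Its highest value, in the PRMT1-inhibitor input, therefore stands for between 5.33 and 13.0 fragments. Its lowest value, with 2 ribosomes and the PRMT4 inhibitor, stands for between 2.36 and 5.75 fragments. The range of IER2 and its differences near 1.5-fold thus rest on few fragments, with no counting interval.

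**Figure D1:**
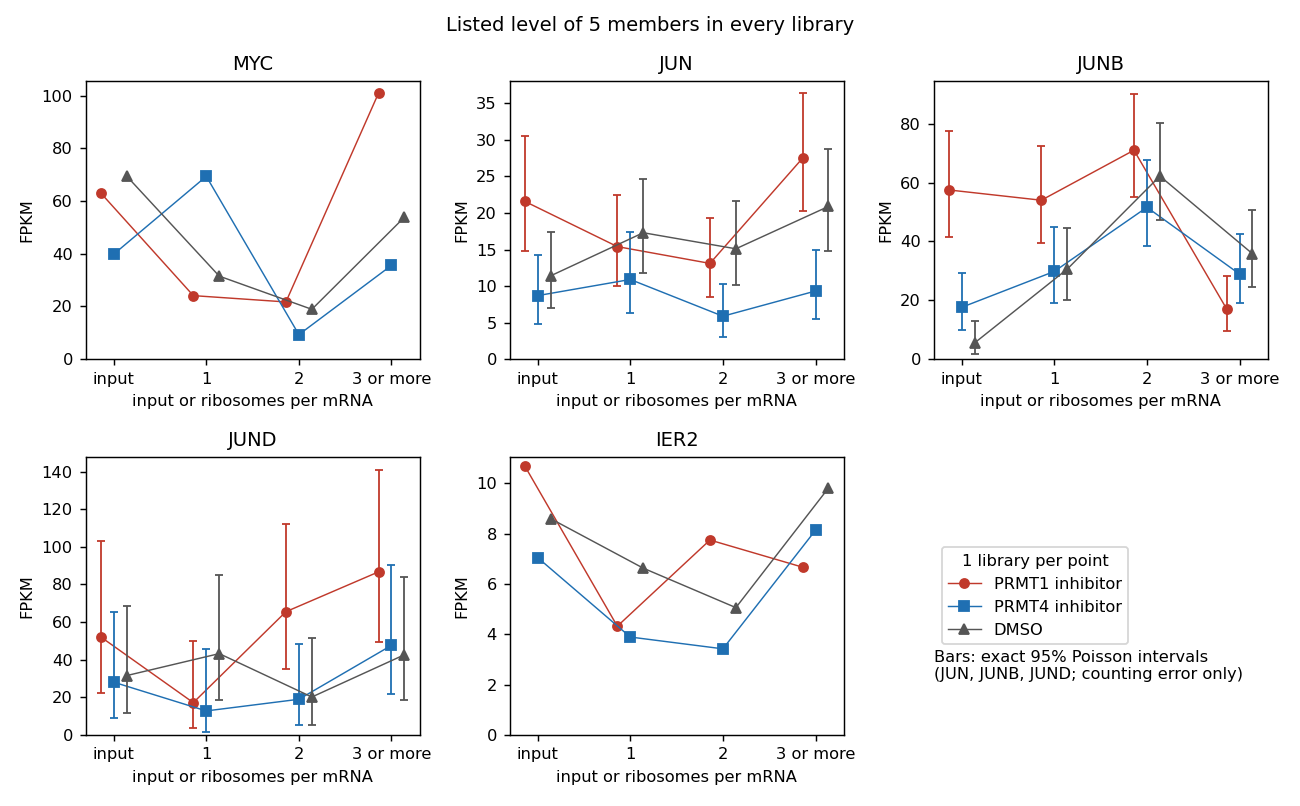
FPKM (vertical axes, linear, each with its own scale) of MYC, JUN, JUNB, JUND and IER2 against the input and the 3 ribosome fractions, 1 library per point, for the PRMT1 inhibitor (red circles), the PRMT4 inhibitor (blue squares) and DMSO (grey triangles). Bars are exact 95% Poisson intervals for JUN, JUNB and JUND. In the JUN panel the PRMT4-inhibitor points, 5.87 to 10.9 FPKM, lie under the DMSO points, 11.4 to 20.9 FPKM, but the bars of the nearest points overlap.

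FOS, the main partner of the JUN proteins, was listed at 5.18 FPKM with 1 ribosome and 2.42 FPKM with 2 ribosomes in the PRMT4-inhibitor gradient, and at 0 in the other 10 libraries. Those 2 values stand for at most 4.80 and 2.93 fragments, at its longest transcript, and are not read as a difference between treatments. EGR1 was listed at 0.590 FPKM, worth 1 fragment, with 2 ribosomes in the PRMT1-inhibitor gradient, and at 0 in the other 11 libraries. A count of 0 (taken as under 3 fragments) allows up to 1.66 to 2.30 FPKM of EGR1 in those libraries. With means of 0.633 and 0.0492 FPKM, neither gene reached the minimum mean of 1 FPKM. An exact 0 in such a table can also be a failed estimate, so neither is called absent, and no fold is given for either.

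A pair of ratios places an mRNA in the gradient within a treatment. Polysome association is 3 or more ribosomes over input, and gradient position is 3 or more ribosomes over 1 ribosome, both as differences of log2(FPKM + 1). The added 1 understates differences of low genes. Each difference was centred, which means that its median over the 10809 genes was set to 0, and a gene is counted as higher or lower at 1.5-fold. The median of all genes is therefore 0 throughout. FPKM ratios given below with a counting interval are centred in the same way, while ratios of fragments summed over 4 libraries are not. Over the differences and ratios below, 23.5 to 37.7% of these genes passed 1.5-fold in a given direction, and 12 to 40.0% of the 2524 genes with a mean of at least 20 FPKM did.

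In gradient position, MYC and JUND lay toward the heavy fraction with the PRMT1 inhibitor, at 2.08 and 2.34 (log2, 3 or more ribosomes over 1), and JUN at 0.86 and IER2 at 0.59 also passed 1.5-fold. JUNB went the other way, at -1.54. That is 4 of 5 genes higher, against 30.5% of all genes, and 1 lower, against 36.7%. The median of the 5 genes was 0.86. Set over the mean of 1 and 2 ribosomes instead, JUND was at 1.45 and IER2, at 0.28, no longer passed. Only for JUN, JUNB and JUND can counting error be given, as ratios of FPKM, centred alike: 1.87 (95% interval 1.14 to 3.13) for JUN, 0.330 (0.171 to 0.604) for JUNB and 5.29 (1.51 to 28.3) for JUND.

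With the PRMT4 inhibitor, gradient position was 1.88 for JUND and 0.95 for IER2, 2 of 5 genes higher against 31.5% of all genes. It was -0.90 for MYC, 1 of 5 lower against 33.9%, but 0.52 when 3 or more ribosomes was set over the mean of 1 and 2. JUN at -0.15 and JUNB at 0.01 stayed under 1.5-fold. For JUND the ratio of 3.90 rests on 9 fragments with 3 or more ribosomes and 2 with 1 ribosome, with a 95% interval of 0.807 to 37.1.

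With DMSO, gradient position was 0.77 for MYC, 1 of 5 genes higher against 30.8% of all genes, and none of the 5 was lower, against 36.0%. JUN at 0.28, JUNB at 0.23, JUND at 0.00 and IER2 at 0.52 stayed under 1.5-fold. The 5 genes thus spanned -1.54 to 2.34 with the PRMT1 inhibitor and -0.90 to 1.88 with the PRMT4 inhibitor, against 0.00 to 0.77 with DMSO. These spans depend on the lighter fraction used. Over the mean of 1 and 2 ribosomes they were -1.69 to 2.20 with the PRMT1 inhibitor and -0.35 to 1.64 with the PRMT4 inhibitor. With DMSO, JUNB was then at -0.21, JUN at 0.43, JUND at 0.59, IER2 at 0.74 and MYC above these, so 3 of 5 genes passed 1.5-fold.

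Polysome association with the PRMT1 inhibitor was 0.66 for MYC and 0.72 for JUND, 2 of 5 genes higher against 33.1% of all genes. It was -1.69 for JUNB and -0.61 for IER2, 2 lower against 32.7%, while JUN was at 0.34. With the mean of the 3 ribosome fractions over the input instead, MYC was at -0.79 and JUND at -0.23, the other direction, and JUNB, at -0.55, was under 1.5-fold. With the PRMT4 inhibitor it was 0.68 for JUNB and 0.75 for JUND, 2 of 5 higher against 31.4%, with none lower against 30.1%, and JUND was at -0.38 with the mean of the 3 fractions. With DMSO it was 1.82 for JUNB, 1 higher against 34.4%, and -1.04 for MYC, 1 lower against 37.3%. Centring removed a median shift of 0.68 from the DMSO ratio, and without it MYC was at -0.36 and JUN at 0.82, so 2 genes were higher and none lower. MYC in DMSO was at -1.91 with the mean of the 3 fractions, and JUND at -0.73 and IER2 at -1.08 were lower as well.

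**Figure D2:**
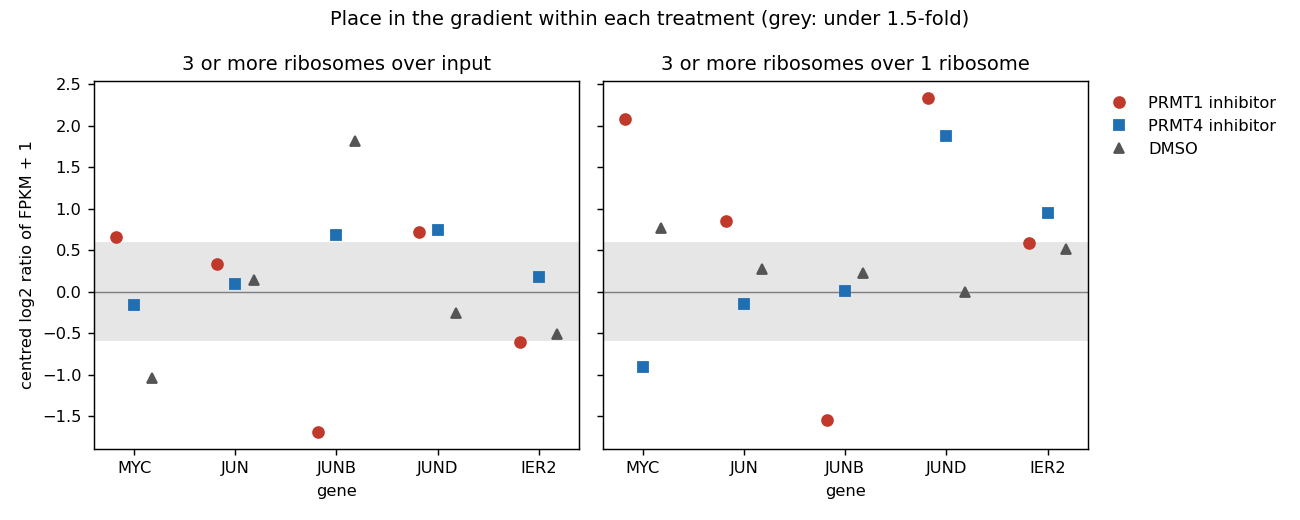
Centred log2 ratios of FPKM + 1 within each treatment (vertical axis) for 5 genes, with 3 or more ribosomes over input on the left and 3 or more over 1 ribosome on the right, 1 ratio per point. The grey band holds values under 1.5-fold, and on the right the PRMT1-inhibitor circles run from -1.54 to 2.34 and the DMSO triangles from 0.00 to 0.77.

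With the PRMT1 inhibitor, JUNB stood farther from DMSO than the other 4 genes in the input and in polysome association. It was higher in the input and lower with 3 or more ribosomes. Its input was 57.5 FPKM with the PRMT1 inhibitor against 5.51 FPKM with DMSO, a centred log2 difference of 2.49 and a centred FPKM ratio of 6.54 (95% counting interval 2.59 to 21.2). With 3 or more ribosomes it was 17.1 FPKM against 35.8 FPKM with DMSO, a log2 difference of -1.03 and a ratio of 0.477 (0.240 to 0.907). JUNB was also higher with 1 ribosome, by 0.80, and its difference with 2 ribosomes was 0.19. Over the 4 libraries it had 169 fragments with the PRMT1 inhibitor and 123 with DMSO, a ratio per counted fragment of 1.47 (1.16 to 1.87), higher in 3 of 4. Such sums pool the input with the ribosome fractions. In the order input, 1, 2 and 3 or more ribosomes, JUNB had 42, 45, 67 and 15 fragments with the PRMT1 inhibitor. With DMSO it had 5, 27, 59 and 32, so the widest gap was in the inputs.

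In the inputs, JUNB was 1 of 5 genes higher, against 32.6% of all genes, and MYC, at -0.81, was 1 of 5 lower, against 34.6%. JUN at 0.19, JUND at 0.04 and IER2 at -0.39 stayed under 1.5-fold. These values are relative to a median shift of 0.67 between the PRMT1-inhibitor and DMSO inputs. As deposited, with no centring, MYC differed by -0.14, JUN by 0.86 and JUND by 0.71, so 3 genes were higher and none lower.

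With 1 ribosome, JUNB was 1 of 5 higher, against 31.3% of all genes, and JUND, at -1.28, was 1 of 5 lower, against 26.1%. JUND was the other way with 2 ribosomes, at 1.66, where it was 1 of 5 higher against 25.5%, and none was lower against 25.3%. With 3 or more ribosomes JUND at 1.01 and MYC at 0.89 were higher, 2 of 5 against 26.4%, and JUNB was 1 of 5 lower, against 26.0%. JUND counted 3, 13 and 16 fragments in those 3 fractions with the PRMT1 inhibitor, against 8, 4 and 8 with DMSO. Its ratio over the 4 libraries, 40 against 26 fragments, was 1.65 (0.982 to 2.82), an interval that includes 1.

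In polysome association, JUNB differed from DMSO by -3.47 with the PRMT1 inhibitor, a position that 3.74% of all genes lay below. Its centred ratio was 0.0788 (0.0201 to 0.252). MYC differed by 1.75 and JUND by 1.03, so 2 of 5 genes were higher, against 36.2% of all genes, and 1 was lower, against 35.9%. JUN at 0.24 and IER2 at -0.05 stayed under 1.5-fold. With the mean of the 3 fractions over the input, JUNB differed by -2.47 and MYC by 1.08, and JUND, at 0.46, no longer passed. In gradient position JUNB differed by -1.79 and MYC by 1.29, and JUND by 2.33, 2 higher against 33.7% and 1 lower against 35.0%. The JUNB ratio was 0.281 (0.118 to 0.644) and the JUND ratio 4.99 (0.889 to 37.5). Over the mean of 1 and 2 ribosomes, JUND differed by 0.83, MYC by 0.98 and JUNB by -1.51. The association and position values share the fraction of 3 or more ribosomes and are not separate evidence. Association also holds the input difference, which for JUNB was 2.49 and rests on 5 fragments in the DMSO input.

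With the PRMT4 inhibitor, JUN was lower than with DMSO in all 4 libraries. Centred log2 differences were -0.92 in the input, -0.63 with 1 ribosome, -1.23 with 2 and -1.09 with 3 or more. The centred FPKM ratios were 0.515 (95% counting interval 0.247 to 1.05), 0.628 (0.326 to 1.17), 0.390 (0.181 to 0.787) and 0.445 (0.235 to 0.807) in that order. As deposited, with no centring, the input ratio was 0.762 (0.365 to 1.55), a log2 difference of -0.36. Over the 4 libraries JUN had 61 fragments with the PRMT4 inhibitor and 119 with DMSO, a ratio per counted fragment of 0.527 (0.381 to 0.724). Of all genes, 6.28% were lower in all 4 libraries after centring, and JUN was lower in all 4 without centring as well. JUN in the PRMT1-inhibitor libraries did not do so: it had 132 fragments against the same 119, a ratio of 1.19 (0.921 to 1.54), with 2 of 4 libraries higher.

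In the PRMT4-inhibitor input, MYC at -1.35, JUN at -0.92, IER2 at -0.82 and JUND at -0.73 were lower, 4 of 5 genes against 26.1% of all genes, and JUNB at 0.95 was 1 of 5 higher, against 36.0%. The median of the 5 genes was -0.82. This count depends on the centring, which removed a shift of 0.57: as deposited, MYC at -0.79 was the only one lower, and JUNB at 1.52 the only one higher. The centred JUNB input ratio of 2.16 (0.747 to 7.61) rests on 15 fragments with the PRMT4 inhibitor and 5 with DMSO.

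With 1 ribosome MYC was higher by 1.12, at 69.4 FPKM with the PRMT4 inhibitor and 31.5 FPKM with DMSO, 1 of 5 genes against 29.3% of all genes. JUND at -1.69, IER2 at -0.64 and JUN were lower, 3 of 5 against 28.3%. With 2 ribosomes MYC at -0.95 and JUN were lower, 2 of 5 against 23.5%, and none was higher, against 28.3%. With 3 or more ribosomes JUN and MYC, at -0.59, were lower, 2 of 5 against 26.5%, and none was higher, against 28.1%. JUNB stayed under 1.5-fold in all 3 ribosome fractions, at -0.04, -0.27 and -0.30, and had 116 fragments over 4 libraries with the PRMT4 inhibitor against 123 with DMSO, a ratio of 0.970 (0.746 to 1.26).

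Polysome association with the PRMT4 inhibitor differed from DMSO by 0.97 for JUND, 0.85 for MYC and 0.66 for IER2, 3 of 5 genes higher against 37.4% of all genes. It differed by -1.17 for JUNB, 1 of 5 lower against 37.1%, and by -0.09 for JUN. As deposited, with a shift of -0.65 left in, none was higher and JUN at -0.73 and JUNB at -1.82 were lower. With the mean of the 3 fractions over the input, JUND at 0.28 and IER2 at 0.47 no longer passed 1.5-fold. In gradient position JUND differed by 1.83, 1 of 5 higher against 35.1%, and MYC by -1.72, 1 of 5 lower against 34.3%. The JUND ratio of 3.65 had an interval of 0.506 to 45.3, and JUN at -0.48, JUNB at -0.28 and IER2 at 0.38 stayed under 1.5-fold. Over the mean of 1 and 2 ribosomes, MYC differed by -0.68 and JUND by 1.04.

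**Figure D3:**
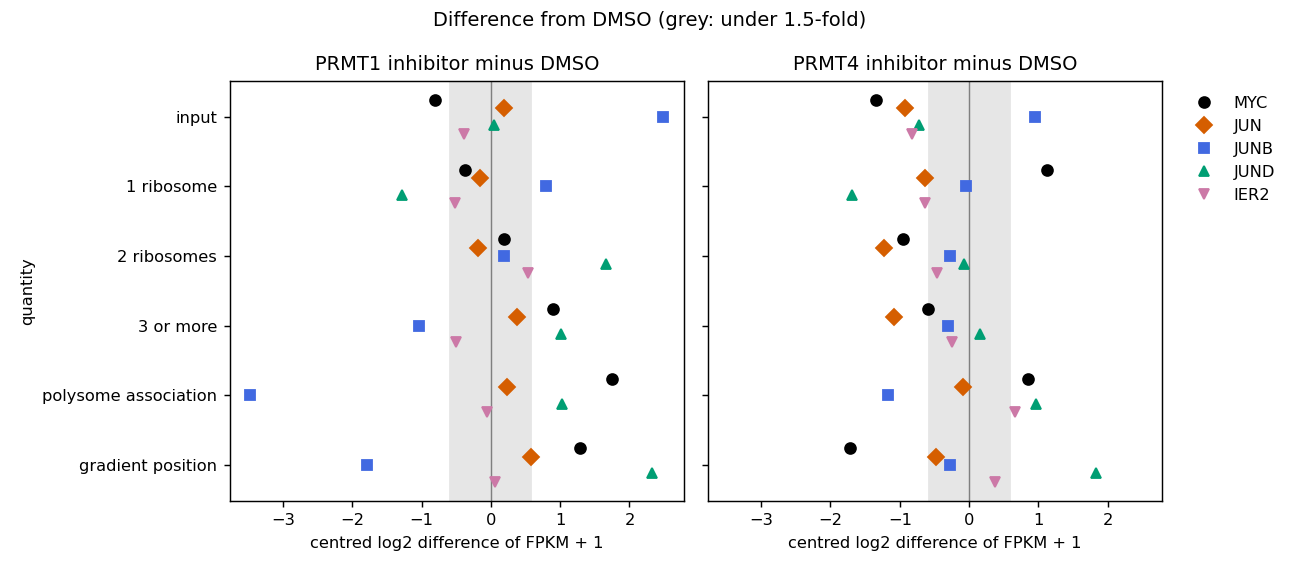
Centred log2 differences of FPKM + 1 from DMSO (horizontal axis) for the PRMT1 inhibitor on the left and the PRMT4 inhibitor on the right, for 5 genes in the input, the 3 ribosome fractions and the 2 gradient ratios (rows). The grey band is under 1.5-fold. In the input and polysome association rows JUNB lies farthest out with the PRMT1 inhibitor, at 2.49 and -3.47, and JUN lies left of the band in the upper 4 rows with the PRMT4 inhibitor.

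**Figure D4:**
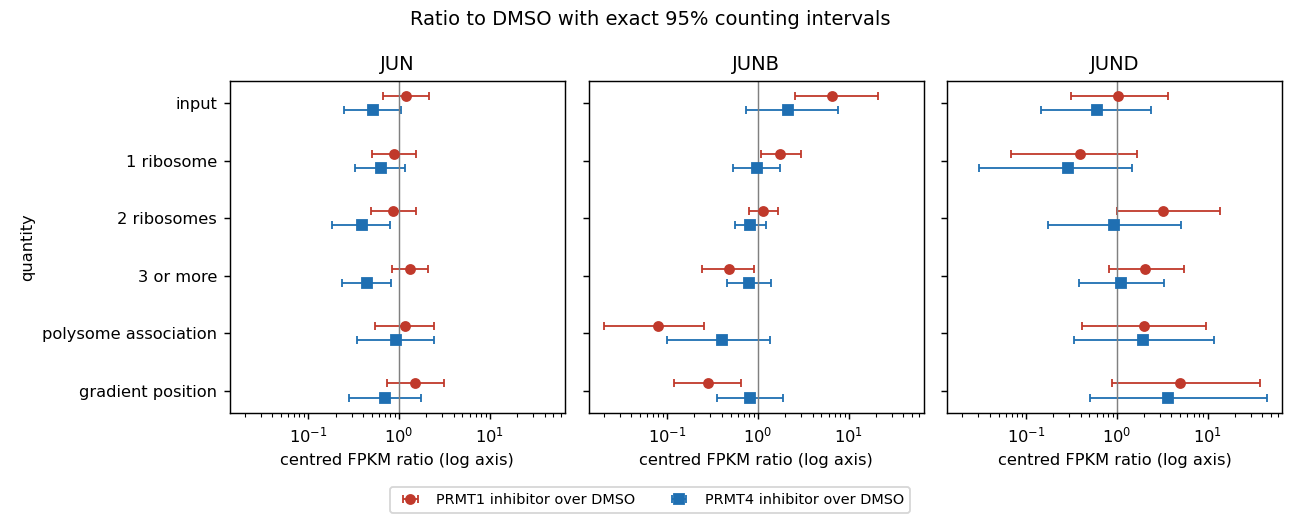
Centred FPKM ratios to DMSO on a log axis, with exact 95% counting intervals, for JUN, JUNB and JUND, the genes whose fragments could be counted. Red circles are the PRMT1 inhibitor and blue squares the PRMT4 inhibitor. The JUN intervals with 2 and with 3 or more ribosomes end under 1 with the PRMT4 inhibitor, at 0.787 and 0.807, and all 6 PRMT4-inhibitor JUND intervals include 1.

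Both comparisons use the same 4 DMSO libraries, so the values are set side by side without relating one to the other. Setting the inhibitors against each other leaves DMSO out. In the inputs JUNB at -1.62, JUN at -1.19, JUND at -0.85 and MYC at -0.62 were lower with the PRMT4 inhibitor than with the PRMT1 inhibitor, 4 of 5 genes against 37.0% of all genes. None was higher, against 32.9%. The centred JUN ratio was 0.410 (0.206 to 0.780) and the centred JUNB ratio 0.313 (0.161 to 0.575).

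With 1 ribosome MYC was higher with the PRMT4 inhibitor, by 1.49, 1 of 5 against 27.2%, and JUNB lower, at -0.83, 1 of 5 against 31.1%. With 2 ribosomes JUND at -1.74, MYC at -1.14, JUN at -1.03 and IER2 at -0.99 were lower, 4 of 5 against 24.1%, and none was higher, against 28.3%. With 3 or more ribosomes MYC and JUN, both at -1.47, and JUND at -0.85 were lower, 3 of 5 against 26.7%, and JUNB at 0.73 was higher, 1 of 5 against 27.8%. Over 4 libraries JUN had 61 fragments with the PRMT4 inhibitor and 132 with the PRMT1 inhibitor, a ratio of 0.443 (0.322 to 0.605). JUND had 20 fragments with the PRMT4 inhibitor and 40 with the PRMT1 inhibitor, a ratio of 0.480 (0.266 to 0.840). JUN and JUND were each lower in 4 of 4 libraries, as were 8.34% of all genes.

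Polysome association with the PRMT4 inhibitor exceeded that with the PRMT1 inhibitor by 2.29 for JUNB and 0.70 for IER2, 2 of 5 genes higher against 37.7% of all genes. MYC was lower, at -0.91, 1 of 5 against 37.5%, but at 0.17 when the mean of the 3 ribosome fractions was set over the input. JUNB was then at 1.36, and IER2, at 0.15, no longer passed 1.5-fold. In gradient position MYC differed by -3.04 and JUN by -1.08, 2 of 5 lower against 34.5%, and JUNB by 1.48, 1 of 5 higher against 34.2%. Over the mean of 1 and 2 ribosomes MYC differed by -1.67, JUN by -0.74 and JUNB by 1.35, and IER2, at 0.78, was also higher. The JUNB ratios were 5.11 (2.01 to 13.6) for association and 2.86 (1.20 to 7.06) for position, while the JUN position ratio of 0.455 (0.184 to 1.12) includes 1.

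Other immediate early genes were read from a list of 37, of which 35 were in the table and 20 reached a mean of 1 FPKM. In this list, 7 genes were above 0 in all 12 libraries. Genes listed at 0 in some libraries stay in the counts and medians of all lists, as they do in the shares of all genes. The part of such 0 values in the list counts was not tested. In the PRMT1-inhibitor input, 4 of 20 were higher, against 32.6% of all genes, and 10 lower, against 34.6%, with a median of -0.62. In the PRMT4-inhibitor input 5 were higher, against 36.0%, and 7 lower, against 26.1%, with a median of -0.50. FOSL1, a FOS relative that pairs with JUN proteins, was listed at 92.0 FPKM in the PRMT1-inhibitor input and 20 FPKM in the PRMT4-inhibitor input, against 18.7 FPKM in the DMSO input, centred log2 differences of 1.56 and -0.48. MAFF, a small basic leucine zipper protein, was listed at 38.3 FPKM in the PRMT1-inhibitor input and 61.8 FPKM in the PRMT4-inhibitor input, against 66.0 FPKM in the DMSO input, differences of -1.44 and -0.66. IER3 was listed at 8.36 FPKM in the PRMT1-inhibitor input and 10.8 FPKM in the PRMT4-inhibitor input, against 23.6 FPKM in the DMSO input, differences of -2.07 and -1.63. FOSB, another FOS relative, was above 0 in all 12 libraries at a mean of 6.53 FPKM, and MCL1, a survival protein of the BCL2 family, averaged 19.6 FPKM. In polysome association 12 of 20 were higher, against 36.2% of all genes, and 4 lower, against 35.9%, with the PRMT1 inhibitor, with a median of 0.93. For the PRMT4 inhibitor 11 were higher, against 37.4%, and 5 lower, against 37.1%, with a median of 0.76.

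The counts of the lists in this paragraph, each of 10 genes or fewer, stand beside the same input shares of all genes. Those are 32.6% higher and 34.6% lower with the PRMT1 inhibitor and 36.0% higher and 26.1% lower with the PRMT4 inhibitor. At these sizes a difference of 1 or 2 genes from those shares is no result about a list. Partners of JUN proteins outside the FOS family, 9 of 12 listed genes past the minimum, were 3 higher and 2 lower in the PRMT1-inhibitor input and 1 higher and 4 lower in the PRMT4-inhibitor input. ATF4, the factor of the integrated stress response, was listed at 15.4 FPKM in the PRMT1-inhibitor input and 9.28 FPKM in the PRMT4-inhibitor input, against 7.25 FPKM in the DMSO input, and its centred differences of 0.32 and -0.25 were under 1.5-fold. Serum response factor and its cofactors, 5 genes, were 1 higher and 2 lower with the PRMT1 inhibitor and 3 higher and 2 lower with the PRMT4 inhibitor in the inputs. SRF, which drives EGR1 and FOS, was listed at 13.0 FPKM in the PRMT1-inhibitor input and 4.36 FPKM in the PRMT4-inhibitor input, against 6.36 FPKM in the DMSO input, centred differences of 0.25 and -1.02. Of 10 genes of the RAS-ERK pathway, which lies upstream, 4 were higher and 4 lower in the PRMT1-inhibitor input and 3 higher and 1 lower in the PRMT4-inhibitor input. Of 4 genes of the JNK pathway, which phosphorylates JUN, 2 were higher and 2 lower in the PRMT1-inhibitor input and 2 higher and 1 lower in the PRMT4-inhibitor input. HRAS was listed at 85.4 FPKM in the PRMT1-inhibitor input and 25.4 FPKM in the PRMT4-inhibitor input, against 17.7 FPKM in the DMSO input, centred differences of 1.53 and -0.07. Proteins that bind AU-rich elements, the sequences that make immediate early mRNAs short-lived, were 3 of 8 higher and 2 lower with the PRMT1 inhibitor and 2 higher and 3 lower with the PRMT4 inhibitor. Both EGR1 corepressors passed the minimum, with 1 higher and 1 lower in the PRMT1-inhibitor input and 2 higher and 0 lower in the PRMT4-inhibitor input. NAB2, which lies opposite STAT6, was listed at 10.3 FPKM in the PRMT1-inhibitor input and 13.3 FPKM in the PRMT4-inhibitor input, against 1.70 FPKM in the DMSO input. Its centred differences passed 1.5-fold with both inhibitors.

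The MYC network, the MAX-binding and related factors, had 10 of 12 genes past the minimum, but only 4 genes above 0 in all 12 libraries. In the inputs 4 were higher, against 32.6% of all genes, and 5 lower, against 34.6%, with the PRMT1 inhibitor. For the PRMT4 inhibitor 3 were higher, against 36.0%, and 2 lower, against 26.1%. With 3 or more ribosomes 5 were higher, against 26.4%, and 2 lower, against 26.0%, with the PRMT1 inhibitor, with a median of 0.61. For the PRMT4 inhibitor 6 were higher there, against 28.1%, and 2 lower, against 26.5%, with a median of 1.08. MXD4, a repressor that competes with MYC for MAX, was listed with 3 or more ribosomes at 28.8 FPKM with the PRMT1 inhibitor and 24.7 FPKM with the PRMT4 inhibitor, against 10.0 FPKM with DMSO, centred differences of 1.43 and 1.22. MXD3 averaged 1819 FPKM and MLX 161 FPKM, and both lie opposite another gene, PRELID1 and PSMC3IP.

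Textbook MYC target genes, 12 of 12 past the minimum, were 7 higher, against 32.6% of all genes, and 2 lower, against 34.6%, in the PRMT1-inhibitor input, with a median of 1.20. Of these genes, 9 were above 0 in all 12 libraries. In the PRMT4-inhibitor input 2 were higher, against 36.0%, and 4 lower, against 26.1%, with a median of -0.40. ODC1, the first enzyme of polyamine synthesis, was listed at 66.5 FPKM in the PRMT1-inhibitor input and 10.9 FPKM in the PRMT4-inhibitor input, against 4.60 FPKM in the DMSO input, centred differences of 2.92 and 0.52. LDHA, which makes lactate, was listed at 16.4 FPKM in the PRMT1-inhibitor input and 5.64 FPKM in the PRMT4-inhibitor input, against 62.7 FPKM in the DMSO input, centred differences of -2.55 and -3.83. In polysome association 2 of 12 were higher, against 36.2%, and 8 lower, against 35.9%, with the PRMT1 inhibitor, with a median of -1.32. With the PRMT4 inhibitor 6 were higher, against 37.4%, and 4 lower, against 37.1%, with a median of 0.92.

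The 5 genes did not share 1 profile. Across the 12 libraries, in centred log2(FPKM + 1), Pearson r with MYC was 0.70 for JUN, 0.66 for IER2 and 0.50 for JUND, and -0.72 for JUNB. JUND and IER2 had r = 0.77, JUN and JUND 0.62, and JUN and JUNB -0.27. Among genes with a mean of at least 20 FPKM, the profiles most like that of MYC were those of DLEC1, DSE and TAX1BP1 (r = 0.85, 0.85 and 0.82). For JUN they were POLR2I, ACTB and ADAM15 (0.91, 0.85 and 0.81), for JUNB VIM, TAFAZZIN and KCNA7 (0.94, 0.90 and 0.87), for JUND ATP6V1G2, AGAP2 and MAF1 (0.84, 0.84 and 0.81) and for IER2 PLP2, DSE and PGAM5 (0.93, 0.86 and 0.84). The 12 points share treatments, gradients and library depth, so these values describe the libraries only.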

How the data were processed

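RNA from 12 libraries was sequenced, 1 per treatment and fraction. The authors deposited FPKM for each Ensembl gene. The submitters' processing notes name cutadapt 1.18, STAR 2.5.3a, RSEM and GRCh37, without roles. The annotation and strand setting are not given in the sources used here, although the kit was directional per the labels. R1, R2 and R3 in the column names were taken, by the numbers in the sample titles, for 1, 2 and 3 or more ribosomes, on which all gradient values rest.

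Symbols, transcript lengths and opposite-strand exons came from GENCODE release 29, on another build (15299 IDs matched). Fragments were estimated from the steps of FPKM with an effective length 150 bases under the transcript length, and 91.4 to 95.5% of low values came out whole within 0.05. Intervals are exact 95% Poisson or conditional binomial. Differences of log2(FPKM + 1) were centred on the median of 10809 genes with a mean of at least 1 FPKM, and 1.5-fold was the size counted. The step fit was tested on simulated data. The differences were simulated only for genes with a mean of at least 20 FPKM and for changes well over 1.5-fold. That simulation does not cover JUN, IER2 or differences near 1.5-fold. The 7 genes were always named. From each other list, up to 5 genes of highest mean were eligible if it was at least 5 FPKM, and a few are printed. For profile likeness the 3 genes of highest r were named. Members and lists were chosen with earlier results of these data known. Python 3.11.15, numpy 2.4.6, pandas 2.3.3 and scipy 1.17.1 were used. Alternatives changed the pseudocount, centring, filter, fold and fractions.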

Additional observations from a re-analysis of the deposited data

How the results depend on the processing

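Libraries were compared fraction by fraction, but no paired test was run. Because each group had 1 library, no replicate could be left out. Each input is a single library and decides every input and association value of its treatment. Depth limits JUND, EGR1, FOS and IER2 most. MYC, FOS and IER2 have no counting interval, and the fragments behind MYC depend on the transcript length. Of 120 single-gene values, 116 stayed on their side of 1.5-fold with a pseudocount of 0.1 FPKM, 107 with 5 FPKM, 105 without centring, 113 with upper-quartile scaling, 112 with the centre over genes of at least 20 FPKM, 112 over all named genes and 117 over genes with no opposite-strand exon. Of 30, 19 did so with the mean of 3 fractions over input and 25 with 3 or more over the mean of 1 and 2 ribosomes. The cause of these moves was not tested.

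With the mean of 3 fractions over input, the polysome association of MYC with the PRMT1 inhibitor was -0.79, that of JUND -0.23 and the median of the 5 genes -0.55. JUND with the PRMT4 inhibitor was at -0.38, and MYC in the PRMT4 minus PRMT1 inhibitor difference at 0.17. With 3 or more over the mean of 1 and 2 ribosomes, MYC gradient position with the PRMT4 inhibitor was 0.52. These 6 values had the other sign with the fractions used in the report.

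Counts of the 5 genes that moved by over 1.5 times were small. At 2-fold, against DMSO, the PRMT1 inhibitor had 0 lower in the input, 0 higher with 1 ribosome and 1 higher with 3 or more. The PRMT4 inhibitor had 0 higher and 1 lower in the input, 1 lower in each of the 3 ribosome fractions and 0 higher in association. PRMT4 against PRMT1 inhibitor gave 2 lower in the input, 0 lower with 1 ribosome, 0 higher with 3 or more, and 1 higher and 0 lower in association. Within treatments the PRMT1 inhibitor had 0 higher and 1 lower in association and 2 higher in position, the PRMT4 inhibitor 0 higher in association and 1 higher and 0 lower in position, and DMSO 0 higher in position.

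Without centring, the PRMT1 inhibitor had 3 higher and 0 lower in the input and 1 higher and 2 lower in association, the PRMT4 inhibitor 1 lower in the input and 0 higher and 2 lower in association, and DMSO 2 higher and 0 lower in association. At a pseudocount of 5 FPKM the PRMT1 inhibitor had 0 lower in the input and the PRMT4 inhibitor 1 lower in the input, with 1 ribosome and with 3 or more, and 1 higher in association. Association then had 1 higher in PRMT4 against PRMT1 inhibitor, 1 lower within the PRMT1 inhibitor and 1 higher within the PRMT4 inhibitor. At 0.1 FPKM the PRMT1 inhibitor had 2 lower with 1 ribosome and 2 higher with 2, and DMSO 2 lower in association. Centred over all named genes, the PRMT1 inhibitor had 2 higher and 0 lower in the input, and the PRMT4 inhibitor 1 lower in the input and 1 higher in association.

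Upper-quartile scaling and the centre over genes of at least 20 FPKM both gave the PRMT1 inhibitor 2 lower with 1 ribosome and 1 lower within its association, and DMSO 2 higher in position. That centre also gave 2 lower in the PRMT1-inhibitor input, 1 higher in association of PRMT4 against PRMT1 inhibitor and 2 lower in DMSO association. With the mean of 3 fractions, association had 1 higher for each inhibitor against DMSO, 1 higher and 0 lower for PRMT4 against PRMT1 inhibitor, 0 higher within the PRMT1 inhibitor, 1 higher within the PRMT4 inhibitor and 3 lower in DMSO. With the mean of 1 and 2 ribosomes, position had 2 higher for PRMT4 against PRMT1 inhibitor, 0 lower within the PRMT4 inhibitor and 3 higher in DMSO.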
